A study of Homo sapiens with 14 samples.

Results

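The G1 cyclins and their kinases are the enzymes that carry a cell from growth into DNA replication. A cyclin is the regulatory subunit and a cyclin-dependent kinase (CDK) the catalytic subunit of each complex. D-type cyclins are made in response to growth factor signals and activate CDK4 and CDK6, which begin to phosphorylate the retinoblastoma protein RB. E-type cyclins, which are themselves targets of the E2F transcription factors that RB restrains, then activate CDK2 at entry into S phase. In FLT3-mutant myeloid leukaemia, block of the FLT3 receptor is known to lower D-type cyclins and to hold cells in G1.

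The 9 genes examined were chosen by name from the 39293 gene identifiers of the expression table. They were the D-type cyclins CCND1, CCND2 and CCND3, the E-type cyclins CCNE1 and CCNE2, the A-type cyclin CCNA1, and the kinases CDK2, CDK4 and CDK6. All 9 were present and passed the filter on low counts. MOLM14, the only cell line sequenced, derives from human acute myeloid leukaemia and carries an internal tandem duplication of FLT3, which keeps the receptor active. The FGF2 early and FL early arms each held 4 flasks of early gilteritinib-resistant cells, kept with 10 ng/mL of the growth factor FGF2 or of FL, the ligand of FLT3, and given 100 nM gilteritinib, a FLT3 inhibitor, for 48 h. The acute arm held 3 libraries of parental cells given the same drug dose for the same time, 1 with FGF2, 1 with FL and 1 without ligand. The parental arm held 3 libraries of untreated cells. The labels' growth protocol covers RPMI-1640 medium with serum for the resistant lines. All libraries came from a single cell line, and the labels do not say that flasks or parental libraries were independently derived, so p-values measure the spread between these samples, which may be technical. The acute arm pools 3 ligand states, so its spread includes differences between ligands. The main fit estimates the spread over all arms together, so these differences also enter the p-values of comparisons without the acute arm. The series names 2 comparisons, early resistant cells with acute treatment and early resistant cells with parental cells.

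Libraries held 25723575 to 33075041 estimated counts. The myeloid markers were present in every library, with CD33 at 49.6 to 84.4 CPM and SPI1 at 78.6 to 187 CPM. Some varied widely, with MPO at 4.66 to 702, CSF1R at 6.91 to 183 and LYZ at 66.5 to 908 CPM. In acute against parental cells mean MPO was lower (4.92 against 68.0 CPM) and mean CSF1R higher (142 against 13.4 CPM). Mean CD68, ITGAM, SPI1, FLT3 and CD33 were higher in acute cells too, and mean LYZ was close (263 against 256 CPM). Markers of other lineages were near 0, with GATA1 reaching at most 1.04 CPM, COL1A1 at most 1.18 CPM, and HBG1 and PPBP without counts. Levels are given in CPM (depth-scaled counts computed after scaling between libraries). Genes were tested with edgeR's quasi-likelihood test, and a gene was called changed at a Benjamini-Hochberg adjusted p under 0.05 over 15756 genes. FGF2 early replicates 1 to 4 are the flasks labelled 5, 6, 7 and 8, and FL early replicates 1 to 4 are those labelled 10, 11, 12 and 9. FL early replicates 1 and 4 stood apart from replicates 2 and 3 in several of the transcripts below. In RNA from bulk cultures, fewer cells in a given cycle phase and less RNA per cell cannot be told apart.

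The upstream sequences of both D-type cyclin kinases, CDK4 and CDK6, are shown as a description, and their part in any change of level was not tested. They are from RefSeq on GRCh38.p14 and cover the 250 bases before an annotated start, 5′ to 3′ along the gene. Capitals mark the letters CACGTG, the E-box read by MYC and related factors. The CDK4 sequence lies at chr12:57752311-57752560 and the CDK6 sequence at chr7:92836574-92836823, both on the minus strand.
CDK4: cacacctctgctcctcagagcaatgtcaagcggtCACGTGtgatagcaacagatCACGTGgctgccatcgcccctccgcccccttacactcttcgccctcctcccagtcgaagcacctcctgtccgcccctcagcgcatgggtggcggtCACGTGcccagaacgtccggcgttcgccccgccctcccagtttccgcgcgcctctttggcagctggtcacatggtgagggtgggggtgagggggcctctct
CDK6: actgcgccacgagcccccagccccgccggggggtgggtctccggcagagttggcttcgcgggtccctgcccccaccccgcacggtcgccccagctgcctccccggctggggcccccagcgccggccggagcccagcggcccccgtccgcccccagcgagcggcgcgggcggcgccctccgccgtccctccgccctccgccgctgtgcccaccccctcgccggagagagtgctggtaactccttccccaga

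CDK4 carried the E-box letters 3 times, beginning 216, 196 and 101 bases before the start. The CDK6 stretch shown held none. Its search window (chr7:92836524-92836823), which also covered bases past the start, held 1 copy beginning 30 bases past the start. A second CDK6 window (chr7:92833910-92834209) held none. Of 35116 RefSeq promoter windows of the same length as these windows, 7.26% held CACGTG. That share is for whole windows, which are longer than the stretches shown. The same search on both strands covered 8 windows of 5 of the genes (CCND3, CCNE1, CCNA1, CDK4 and CDK6). It used the E2F-type letters TTTCCCGC, TTTGGCGC, TTTCGCGC and TTTGCCGC, present in 3.31% of windows, together with the CHR letters TTTGAA (15.2%), the CRE letters TGACGTCA (1.85%), the STAT letters TTCNNNGAA (7.66%) and the FOXO letters GTAAACA (3.42%). Of these only the FOXO letters were found, once, in 1 CCND3 window. A match is a description of these letters, not evidence of binding, and their absence concerns these windows alone.

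**Figure D1:**
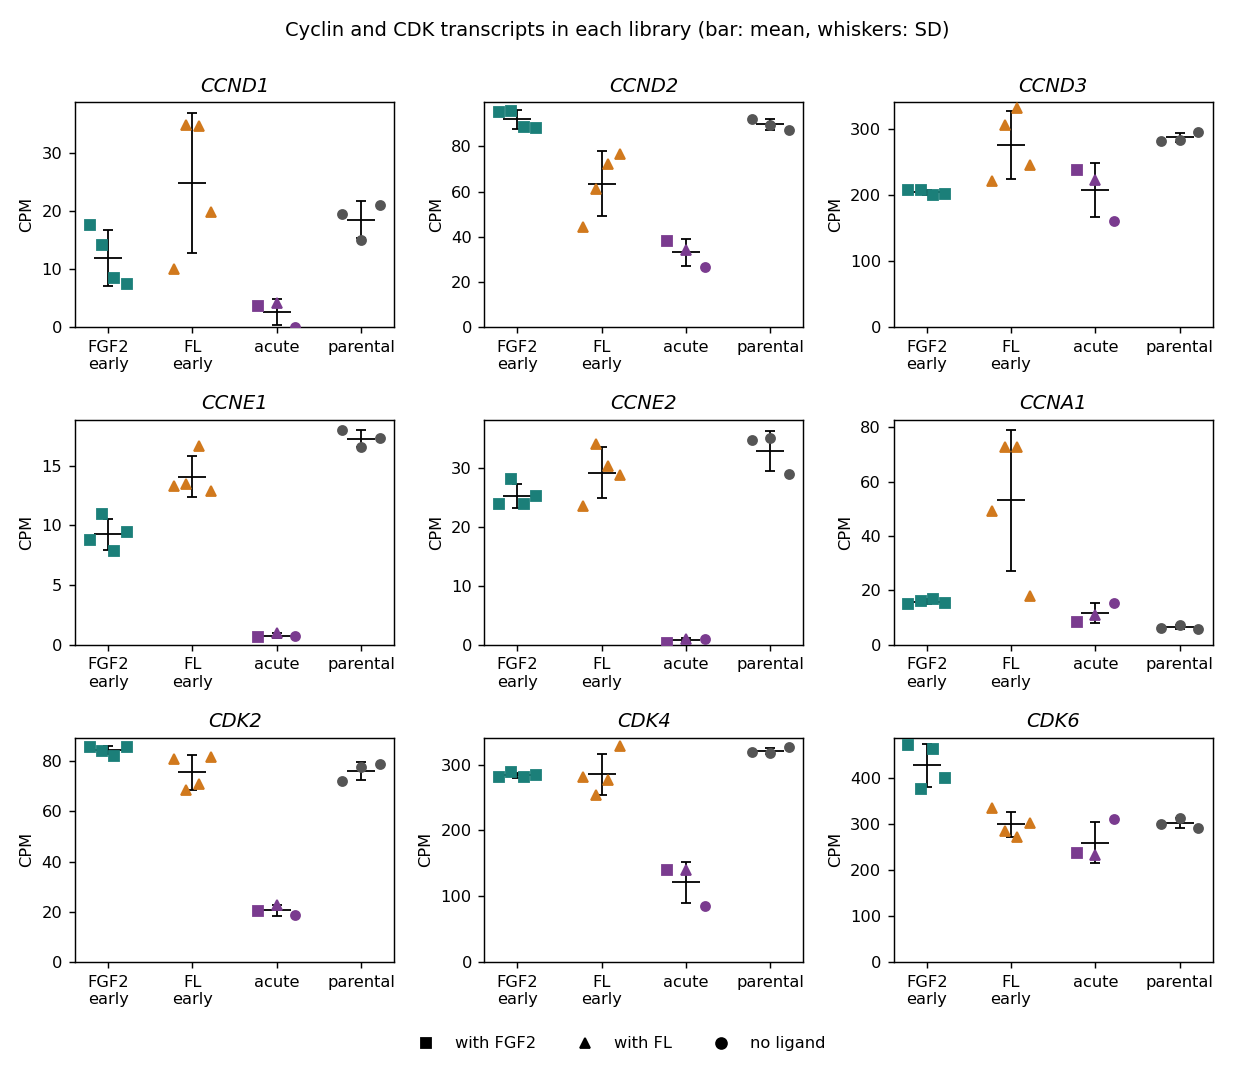
Level of each transcript in CPM (vertical axes, linear from 0) in the FGF2 early, FL early, acute and parental libraries. Points are libraries with shapes for the ligand, and bars with whiskers are means ± SD of 4, 4, 3 and 3 libraries. CCNE1 and CCNE2 were near 0 in all 3 acute libraries, and CCNA1 was lowest in the parental arm.

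Acute drug treatment was the condition in which most of these genes moved. Of the 9 genes, 7 fell and none rose in acute against parental cells, where 62.6% of all tested genes were called in either direction. Their median log2 fold change was −1.45, against 0.07 over all tested genes. The E-type cyclins and CDK2, the pair that acts at S phase entry, and the D-type cyclins and CDK4, which act before them, were all among those that fell. CCNA1 and CDK6 were not called. Over all tested genes, the acute and parental ranges were apart for 69.4%.

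CCNE1, the first of the E-type cyclins, stood at 0.619, 0.962 and 0.689 CPM in the acute libraries with FGF2, with FL and without ligand, against 17.98, 16.6 and 17.3 CPM in parental libraries 1 to 3. Every acute library was far below every parental one. The fall was 22.9-fold, with a log2 fold change of −4.52 ± 0.19 (SE, adjusted p = 1.32e-10). CCNE2, its close relative, stood at 0.309, 1.001 and 0.951 CPM in the same acute libraries, against 34.7, 35.1 and 29.01 CPM in parental libraries. This was the largest fall of the 9 genes (log2 fold change −5.45 ± 0.26, adjusted p = 5.31e-10). The acute CCNE2 levels rested on 9, 26 and 29 counts and those of CCNE1 on 18, 25 and 21 counts, so differences between these libraries are imprecise.

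CDK2, the partner of cyclin E, stood at 20.3, 22.9 and 18.7 CPM in the acute libraries with FGF2, with FL and without ligand, against 72.2, 77.7 and 78.8 CPM in parental libraries. The ranges were apart. CDK2 fell 3.70-fold (log2 fold change −1.89 ± 0.09, adjusted p = 5.21e-10), a smaller change than that of either E-type cyclin. Exons of CDK2 overlap those of PMEL on the opposite strand, as do those of CCND1 with LTO1, CCND2 with CCND2-AS1, CCNE2 with INTS8 and CDK4 with TSPAN31. The libraries were stranded, but the strand setting used in counting is not given in the sources used here, so reads of such pairs may be shared.

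Among the D-type cyclins, CCND1 stood at 3.68, 4.12 and 0.0328 CPM in the acute libraries with FGF2, with FL and without ligand, against 19.4, 14.9 and 21.1 CPM in parental libraries. All acute libraries were lower than all parental ones, and the library without ligand held 1 count. The log2 fold change was −2.84 ± 0.74 (adjusted p = 0.00405). Without the ligand-free library it was −2.25 (adjusted p = 0.00282), and with limma-voom −4.44 (adjusted p = 0.00608). With that library as the whole acute arm it was −8.96, a value that depends on how a single count is treated. Values against this library alone are given without a p, because 1 library has no spread of its own and a test would assume that it varies like the other arms.

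CCND2 stood at 38.1, 34.2 and 26.7 CPM in the acute libraries in the same order, against 92.3, 89.6 and 87.4 CPM in parental libraries. The ranges were apart, and CCND2 fell 2.72-fold (log2 fold change −1.45 ± 0.17, adjusted p = 3.62e-06). CCND3, the most abundant D-type cyclin per transcript length in every library, stood at 238, 222 and 161 CPM in the acute libraries, against 283, 284 and 296 CPM in parental libraries. Its fall was the smallest of the D-type cyclins (log2 fold change −0.47 ± 0.15, adjusted p = 0.0121). The CCND3 call was lost without the ligand-free library (log2 fold change −0.32, adjusted p = 0.0536), and with that library as the whole acute arm the value was −0.84.

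CDK4 stood at 139, 139.8 and 85.3 CPM in the acute libraries with FGF2, with FL and without ligand, against 319, 317 and 326 CPM in parental libraries. No acute library reached the parental range, and CDK4 fell 2.64-fold (log2 fold change −1.40 ± 0.15, adjusted p = 1.39e-06). CDK6, the other kinase of the D-type cyclins, stood at 236, 232 and 310.0 CPM in the same acute libraries, against 300.3, 312 and 291 CPM in parental libraries. The ligand-free library lay inside the parental range and both libraries with ligand lay below it. CDK6 was not called over the arm (log2 fold change −0.22 ± 0.12, adjusted p = 0.130), and without the ligand-free library it was lower (log2 fold change −0.36, adjusted p = 0.00916).

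CCNA1, an A-type cyclin best known from germ cells and also found in myeloid leukaemia, stood at 8.45, 10.9 and 15.5 CPM in the acute libraries with FGF2, with FL and without ligand, against 6.17, 7.09 and 5.72 CPM in parental libraries. All acute libraries were above all parental ones, yet the test over the arm did not call it (log2 fold change 0.88 ± 0.40, adjusted p = 0.0683). It passed with DESeq2 (adjusted p = 0.0328), with upper quartile scaling (0.0428) and in a fit of the acute and parental arms alone (0.0108).

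**Figure D2:**
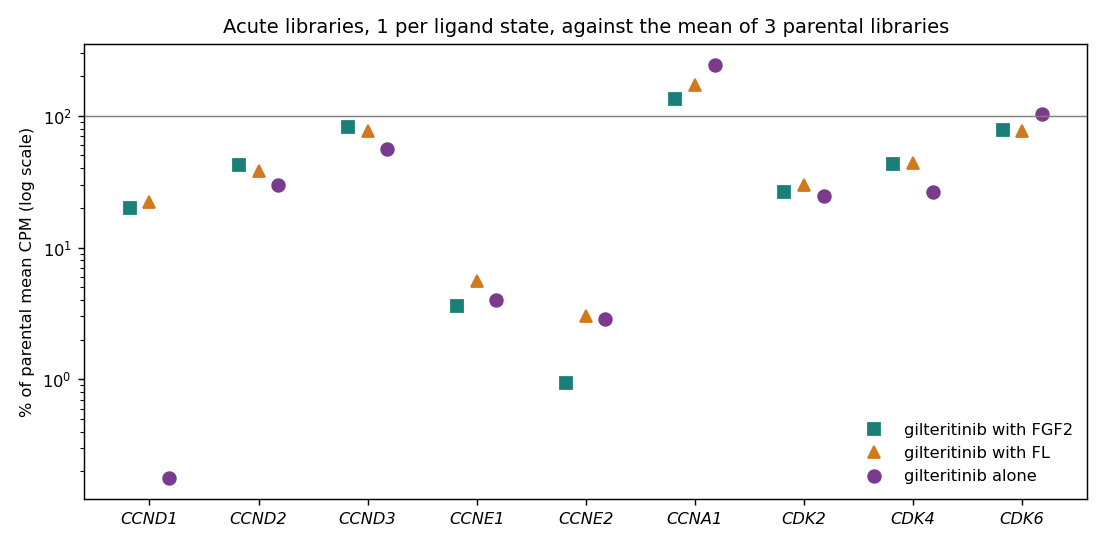
Each acute library as a percentage of the mean of 3 parental libraries (vertical axis, log scale) for the 9 transcripts, with shapes for gilteritinib with FGF2, with FL and alone. CCND1 stood at 19.9%, 22.3% and 0.177% of the parental mean, whereas the 3 libraries lay close together for CDK2.

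Each ligand state of acute treatment was sequenced once, so ligands could not be compared by a test here, and the intervals below cover counting error only. CCND1 held 107 counts with FGF2 and 107 with FL against 1 count without ligand. The ratio to the ligand-free library was 112 with FGF2 (95% exact interval 19.7 to 4470) and 126 with FL (22.1 to 5008). Even with ligand, CCND1 remained at 19.9% and 22.3% of the parental mean. CDK4 was also higher with ligand, with ratios of 1.63 for FGF2 (1.55 to 1.71) and 1.64 for FL (1.56 to 1.73).

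CCND2 had ratios of 1.43 with FGF2 and 1.28 with FL to the ligand-free library, and CCND3 had ratios of 1.48 and 1.38. CDK6 and CCNA1 ran the other way, with ratios of 0.763 and 0.747 for CDK6 and of 0.546 and 0.704 for CCNA1, FGF2 first in each pair. CDK2 had ratios of 1.08 and 1.22. For CCNE1 both intervals included 1 (ratios 0.898 and 1.40), whereas CCNE2 had a ratio of 0.325 with FGF2 (0.135 to 0.706) and of 1.05 with FL.

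Early resistant cells, although also under gilteritinib, held more of most of these transcripts than acutely treated cells. In early against acute cells 8 of the 9 genes were higher and none was lower, with 66.0% of all tested genes called in either direction. Their median log2 fold change was 1.31, against −0.04 over all tested genes. The early and acute ranges were apart for 50.2% of all tested genes. These comparisons and those of acute with parental cells share the acute libraries, so their values are given side by side and not as independent evidence.

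The E-type cyclins differed most. CCNE2 stood at 23.9, 28.2, 23.8 and 25.2 CPM in FGF2 early replicates 1 to 4 and at 23.5, 34.0, 30.4 and 28.9 CPM in FL early replicates 1 to 4. No early flask approached the acute values of at most 1.001 CPM. The log2 fold change was 5.17 ± 0.25 (adjusted p = 4.68e-10), a 36.1-fold difference. CCNE1 stood at 8.75, 10.9, 7.89 and 9.44 CPM in FGF2 early flasks and at 13.3, 13.5, 16.6 and 12.9 CPM in FL early flasks. All were above the acute values, and the log2 fold change was 3.92 ± 0.18 (adjusted p = 2.38e-10).

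CDK2 stood at 85.5, 84.3, 82.1 and 85.7 CPM in FGF2 early flasks and at 81.1, 68.5, 71.0 and 81.8 CPM in FL early flasks, all above the acute libraries (log2 fold change 1.95 ± 0.08, adjusted p = 1.10e-10). CDK4 stood at 281, 289, 281 and 284 CPM in FGF2 early flasks and at 282, 254, 277 and 329 CPM in FL early flasks, again all above the acute libraries (log2 fold change 1.23 ± 0.13, adjusted p = 1.14e-06). CDK6 stood at 471, 375, 463 and 400.5 CPM in FGF2 early flasks and at 335, 285, 272 and 302 CPM in FL early flasks. FL early flasks overlapped the ligand-free acute library for CDK6. The CDK6 log2 fold change was 0.46 ± 0.10 (adjusted p = 0.00103), and against the ligand-free acute library alone it was 0.20.

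CCND2 stood at 95.4, 95.6, 88.7 and 88.1 CPM in FGF2 early flasks and at 44.2, 61.2, 72.0 and 76.6 CPM in FL early flasks. All lay above the acute libraries (log2 fold change 1.21 ± 0.15, adjusted p = 4.55e-06). CCND1 stood at 17.5, 14.1, 8.44 and 7.31 CPM in FGF2 early flasks and at 10.0, 34.7, 34.6 and 19.7 CPM in FL early flasks. Its spread was the widest of the 9 genes among FGF2 early flasks, and only CCNA1 varied more among FL early flasks, yet no flask reached down to the acute range (log2 fold change 2.73 ± 0.67, adjusted p = 0.00266). Without the ligand-free acute library the value was 2.14 (adjusted p = 0.0022), with limma-voom it was 4.23 (adjusted p = 0.00631), and against that library alone it was 8.86, which again rests on 1 count.

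CCND3 was the member not called over the whole acute arm. It stood at 208, 207, 199.6 and 202 CPM in FGF2 early flasks and at 221, 307, 332 and 245 CPM in FL early flasks, and these overlapped the acute libraries (log2 fold change 0.20 ± 0.12, adjusted p = 0.173). Against the ligand-free acute library alone the log2 fold change was 0.56, and without that library it was 0.05 (adjusted p = 0.753). All FGF2 early flasks and FL early replicate 1 lay below both acute libraries with ligand (238 and 222 CPM). FL early replicates 2 to 4 lay above them. CCND3 passed without FL early replicate 1 (adjusted p = 0.0299), and with both replicates 1 and 4 of that arm left out it had a log2 fold change of 0.36 (adjusted p = 0.00571).

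CCNA1 stood at 14.8, 16.2, 16.7 and 15.1 CPM in FGF2 early flasks and at 49.2, 72.6, 72.7 and 17.8 CPM in FL early flasks. FGF2 early flasks overlapped the ligand-free acute library, whereas FL early flasks lay above all acute libraries. The log2 fold change was 1.31 ± 0.34 (adjusted p = 0.00344), and against the ligand-free acute library alone it was 0.90.

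**Figure D3:**
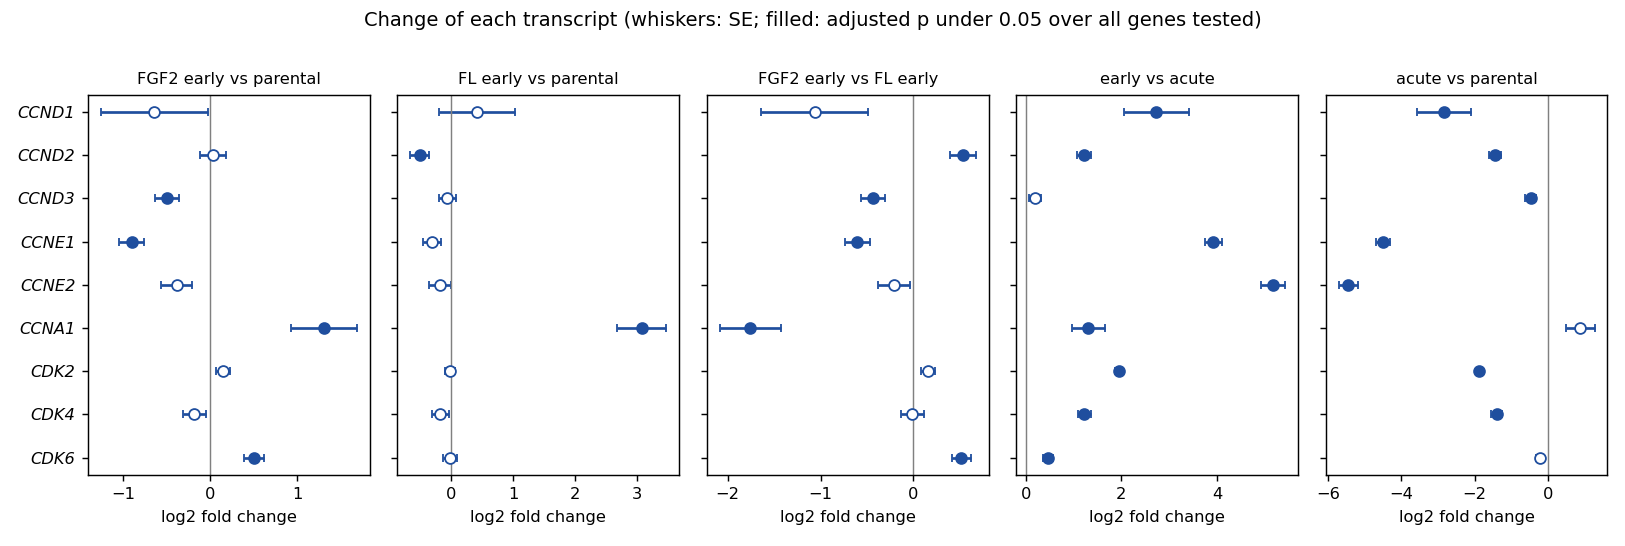
Log2 fold change of each transcript (horizontal axes, with a scale of its own in each panel) in 5 comparisons, with whiskers for the SE and filled points for an adjusted p under 0.05. In early against acute cells 8 of 9 points are filled and to the right of 0, and in acute against parental cells 7 of 9 are filled and to the left.

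Against untreated parental cells the early flasks differed much less. With both early arms averaged, CCNA1 rose and CCNE1 fell and the other 7 genes were not called, in a comparison where 29.8% of all tested genes were called. The median log2 fold change of the 9 genes was −0.17, against 0.01 over all tested genes. The early and parental ranges were apart for 22.3% of all tested genes. CCNA1 had a log2 fold change of 2.19 ± 0.36 (adjusted p = 7.27e-04), and all 8 early flasks were above all parental libraries. CCNE1 had a log2 fold change of −0.60 ± 0.12 (adjusted p = 0.00284), although FL early replicate 3 lay inside the parental range. CDK6 had a log2 fold change of 0.25 ± 0.10 (adjusted p = 0.0779), and it passed without FGF2 early replicate 2 (adjusted p = 0.0481) and in a fit of these arms alone (0.0329). CCND3 had a log2 fold change of −0.28 (adjusted p = 0.100) and passed without FL early replicate 3 (adjusted p = 0.0445).

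In FGF2 early against parental cells, 2 of the 9 genes rose and 2 fell, where 30.4% of all tested genes were called. CCNA1 rose (log2 fold change 1.31 ± 0.38, adjusted p = 0.0177) and so did CDK6 (0.50 ± 0.11, adjusted p = 0.00417). CCNE1 fell (log2 fold change −0.90 ± 0.14, adjusted p = 4.53e-04) and so did CCND3 (−0.49 ± 0.14, adjusted p = 0.0146). The 4 flasks lay wholly outside the parental range for each of these genes, as they did for 48.2% of all tested genes. The CCNA1 call was lost with limma-voom (adjusted p = 0.106) and without parental library 1 (0.0616) or parental library 3 (0.0610).

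CCNE2, CDK4 and CDK2 also lay outside the parental range in all 4 FGF2 early flasks without being called. Their log2 fold changes were −0.38 ± 0.18 for CCNE2 (adjusted p = 0.124), −0.18 ± 0.13 for CDK4 (0.336) and 0.15 ± 0.08 for CDK2 (0.187). In a fit of the FGF2 early and parental arms alone, all of them passed (adjusted p = 0.0085, 0.00465 and 0.0311, in the same order), so that 7 of the 9 genes were called. The main fit called 4793 genes in all (30.4%), and the alternatives run, this fit included, called up to 6757. The share of all genes called in this fit alone is not given here, so its 7 genes cannot be set against that share. CCNE2 also passed with DESeq2 (adjusted p = 0.0346) and with limma-voom (0.0440). CCND1 had a log2 fold change of −0.64 ± 0.61 (adjusted p = 0.455) and CCND2 one of 0.03 ± 0.15 (0.887), and both overlapped the parental range.

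In FL early against parental cells, 1 gene rose and 1 fell, where 20.7% of all tested genes were called. CCNA1 rose 8.38-fold, with a log2 fold change of 3.07 ± 0.40 (adjusted p = 2.39e-04), and even replicate 4 with 17.8 CPM was above the parental maximum of 7.09 CPM. CCND2 fell (log2 fold change −0.50 ± 0.15, adjusted p = 0.0320), and no FL early flask reached the parental range. The FL early and parental ranges were apart for 31.1% of all tested genes. This CCND2 call was lost without FL early replicate 2 (adjusted p = 0.0623), without parental library 1 (0.104), 2 (0.0940) or 3 (0.0627), and in a fit of the FL early and parental arms alone (0.0839). CCNE1 had a log2 fold change of −0.30 ± 0.14 (adjusted p = 0.154). CCND1 had one of 0.42 ± 0.62 (adjusted p = 0.670), with FL early replicate 1 below the parental range and replicates 2 and 3 above it. CCND3, CCNE2, CDK2, CDK4 and CDK6 all overlapped the parental range, with log2 fold changes of −0.17 to −0.01.

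The direct test between the early arms called 5 of the 9 genes, 2 higher and 3 lower in FGF2 early flasks, where 13.6% of all tested genes were called. CCNA1 was lower (log2 fold change −1.76 ± 0.33, adjusted p = 0.00375), as were CCNE1 (−0.60 ± 0.13, adjusted p = 0.00871) and CCND3 (−0.44 ± 0.13, adjusted p = 0.0371). CDK6 was higher (log2 fold change 0.52 ± 0.10, adjusted p = 0.00506), as was CCND2 (0.53 ± 0.14, adjusted p = 0.0236). For all 5 genes the 4 FGF2 early flasks lay wholly outside the range of the 4 FL early flasks, which held for 17.3% of all tested genes.

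The CCND2 and CCND3 calls depended on single flasks. The CCND2 call was lost without FGF2 early replicate 1 or 2 or FL early replicate 2 (adjusted p = 0.0543 to 0.0641). The CCND3 call was lost without any 1 of the FGF2 early flasks or without FL early replicate 2 or 3 (adjusted p = 0.0710 to 0.120). CDK2 lay above the FL early range in all FGF2 early flasks and was not called (log2 fold change 0.16 ± 0.07, adjusted p = 0.182), and it passed without FL early replicates 1 and 4 (adjusted p = 0.0246). CCND1 had a log2 fold change of −1.06 ± 0.57 (adjusted p = 0.253), CCNE2 one of −0.21 (0.466) and CDK4 one of −0.01 (0.973). The myeloid granule markers MPO and LYZ were also lower in FGF2 early than in FL early flasks (log2 fold changes −3.65 ± 0.33 and −2.61 ± 0.35, adjusted p = 2e-05 and 4.37e-04). By mean CPM, SPI1, CD68 and CSF1R were lower too. CD33 (72.1 against 71.6), FLT3 (435 against 367) and ITGAM (44.0 against 35.3) were higher by mean CPM in FGF2 early flasks. The part of these markers in the cyclin and kinase differences was not tested.

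Flasks of an arm varied unequally from gene to gene. Among FL early flasks the highest value was 4.09 times the lowest for CCNA1 and 3.47 times for CCND1, whereas it was 1.19 times for CDK2 and 1.23 times for CDK6. Among FGF2 early flasks it was 2.39 times for CCND1, 1.39 times for CCNE1 and at most 1.26 times for the others. FL early replicates 2 and 3 held the 2 highest values of the arm for CCND1, CCND3, CCNE1, CCNE2 and CCNA1 and the 2 lowest for CDK2, CDK4 and CDK6.

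The order of the arms differed between members. By mean level, CCND1 ran from FL early (24.8 ± 12.1 CPM) through parental (18.5 ± 3.19) and FGF2 early (11.8 ± 4.80) to acute (2.61 ± 2.24), and of these neighbours only FGF2 early and acute had ranges apart. CCND2 ran from FGF2 early (91.9 ± 4.09 CPM) and parental (89.8 ± 2.46), which overlapped, to FL early (63.5 ± 14.4) and acute (33.0 ± 5.81), each apart from the next. CCND3 ran from parental (287 ± 7.28 CPM) through FL early (276 ± 51.9) and acute (207 ± 40.9) to FGF2 early (204 ± 4.03), and every pair of neighbours overlapped. CCNE1 and CCNE2 shared the order parental, FL early, FGF2 early and acute, with the acute arm apart from the rest. CCNA1 ran from FL early (53.1 ± 26.0 CPM) through FGF2 early (15.7 ± 0.913) and acute (11.6 ± 3.57), which overlapped, to parental (6.33 ± 0.697). CDK2, CDK4 and CDK6 all had their lowest mean in the acute arm, where CDK2 and CDK4 but not CDK6 were apart from the other arms. Errors in this paragraph are SDs over 4 early flasks of an arm, 3 acute or 3 parental libraries.

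**Figure D4:**
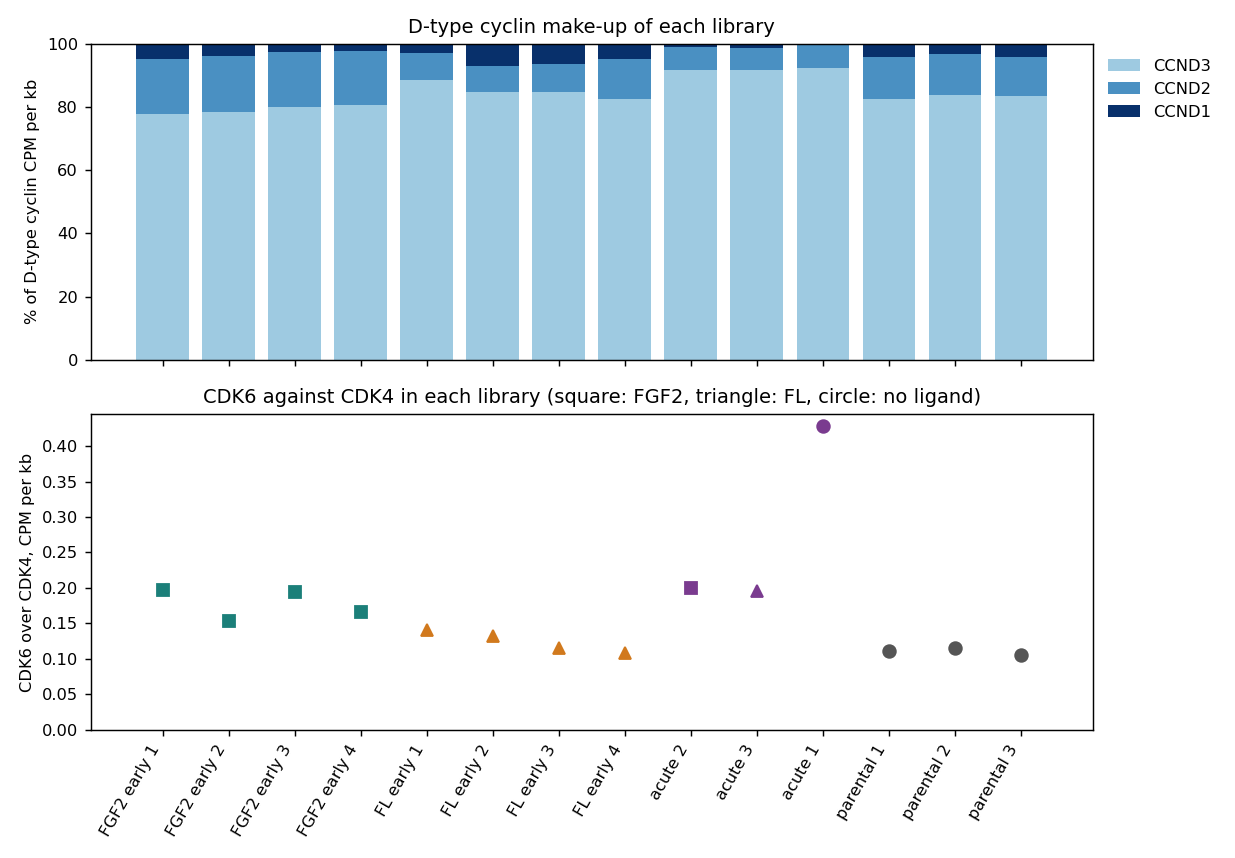
Upper panel, share of CCND3, CCND2 and CCND1 in the summed D-type cyclin level per transcript length (CPM per kb, in percent) of each library. Lower panel, ratio of CDK6 to CDK4 in CPM per kb. CCND3 held 77.8% to 92.4% of the sum in each library, and the CDK6 to CDK4 ratio was highest, at 0.429, in the acute library without ligand.

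Levels of different genes were compared per length, as CPM divided by the median length of the protein-coding transcripts in kb. On this scale CCND3 made up most of the D-type cyclin transcripts in every library. Its share was 79.2% ± 1.34 in FGF2 early flasks, 85.2% ± 2.42 in FL early flasks (SD, n = 4 each), 92.0% ± 0.368 in acute libraries and 83.4% ± 0.610 in parental libraries (SD, n = 3 each). CCND2 held 17.5% ± 0.208 in FGF2 early flasks, 9.69% ± 2.02 in FL early flasks, 7.24% ± 0.294 in acute libraries and 12.8% ± 0.591 in parental libraries. FGF2 early flasks thus lay at 17.3% to 17.8%, above all other libraries, of which the highest were at 13.3%. CCND1 held 3.23% ± 1.20 in FGF2 early flasks, 5.16% ± 1.78 in FL early flasks, 0.742% ± 0.639 in acute libraries and 3.80% ± 0.586 in parental libraries.

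The level of CDK6 per length was below that of CDK4 in every library. The CDK6 to CDK4 ratio was 0.178 ± 0.0217 in FGF2 early flasks, 0.124 ± 0.0146 in FL early flasks, 0.275 ± 0.133 in acute libraries and 0.111 ± 0.00538 in parental libraries. Among acute libraries it was 0.200 with FGF2, 0.195 with FL and 0.429 without ligand. These ratios depend on the transcript length assumed, since the median of 771 bases for CDK4 includes short annotated fragments, while the comparison between libraries does not change with it.

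The other genes of the pathway were described from lists by role. The CDK inhibitors, which bind and restrain these complexes, ran opposite to most of the cyclins in acute cells. Of 7 listed, CDKN2A and CDKN2B had no counts in any of the 14 libraries, which allows at most 0.117 CPM (3 counts) in the shallowest library, and they were not tested. In acute against parental cells 4 of the 5 tested inhibitors rose, with a median log2 fold change of 0.73. CDKN1A (p21) stood at 590, 637 and 529 CPM in the acute libraries with FGF2, with FL and without ligand, against 199.9, 199.3 and 223 CPM in parental libraries (2.82-fold, adjusted p = 6.06e-05). CDKN2D (p19, an inhibitor of CDK4 and CDK6) had a log2 fold change of 0.73 ± 0.13 (adjusted p = 2.82e-04), CDKN1B (p27) one of 0.40 ± 0.11 (0.00535), and CDKN1C (p57) one of 4.24 ± 0.58 (2.01e-05) at no more than 5.51 CPM. CDKN2C (p18) was not called (log2 fold change 0.02 ± 0.07, adjusted p = 0.856).

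All 5 tested inhibitors were lower in early than in acute cells, with log2 fold changes of −4.08 for CDKN1C to −0.18 for CDKN2C. The CDKN2C call was lost without a low-count filter and without FGF2 early replicate 1 or 2 or the acute library with FL or without ligand. In FGF2 early against parental cells CDKN2D alone was called among them, and it fell (log2 fold change −0.73 ± 0.13, adjusted p = 8.66e-04). CDKN1A was not called (log2 fold change 0.55), although the FGF2 early flasks, at 285 to 330 CPM, all lay above the parental 199 to 223 CPM. Both CDKN1A and CDKN2C (log2 fold change −0.18) passed with DESeq2 and in a fit of these arms alone. CDKN2D stood at 8.55, 7.83, 7.82 and 7.85 CPM in FGF2 early flasks, below the 12.6 to 13.9 CPM of parental libraries and the 10.7 to 16.3 CPM of FL early flasks. It was also lower in the direct test against FL early flasks (log2 fold change −0.78 ± 0.12, adjusted p = 8.90e-04). No inhibitor was called in FL early against parental cells with edgeR, where CDKN1A had a log2 fold change of 0.51 ± 0.21 (adjusted p = 0.107), and 2 had an unadjusted p under 0.05. DESeq2 and limma-voom also called 0, and without FL early replicate 1 the number called was 2.

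**Figure D5:**
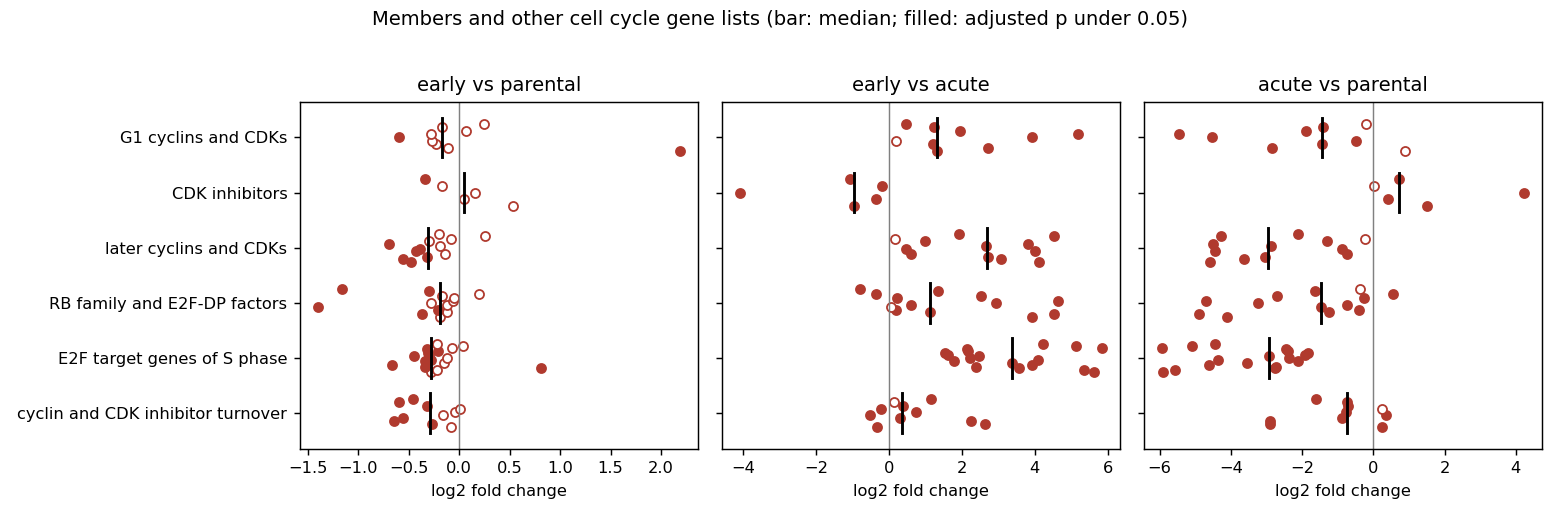
Log2 fold change (horizontal axes) of each tested gene of the G1 cyclins and CDKs and of 5 other cell cycle lists, in early against parental, early against acute and acute against parental cells. Bars are list medians and filled points have an adjusted p under 0.05. The E2F targets lie wholly to the right of 0 in early against acute cells and wholly to the left in acute against parental cells.

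The S phase genes driven by E2F fell together with the E-type cyclins. Of 17 E2F targets, all 17 were lower in acute than in parental cells, with a median log2 fold change of −2.91, and all 17 were higher in early than in acute cells, with a median of 3.39. Among those with the smallest adjusted p in acute against parental cells were MCM4, a helicase subunit (log2 fold change −4.36), CDC6, a licensing factor (−5.57), RRM1, a ribonucleotide reductase subunit (−2.46), and TYMS, which makes thymidylate (−4.44). In early against parental cells 9 fell and 1 rose, with a median of −0.28, and the one that rose was CDT1, another licensing factor (log2 fold change 0.81 ± 0.19, adjusted p = 0.00667). Between FGF2 early and FL early flasks, 0 of the 17 were called with edgeR, where 4 had an unadjusted p under 0.05, and DESeq2 and limma-voom each called 1.

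Of 12 later cyclins, kinases and their regulators, 11 were lower in acute than in parental cells and 11 were higher in early than in acute cells, with medians of −2.96 and 2.70, and MNAT1 was called in neither. CDK1, the mitotic kinase, had a log2 fold change of −4.51 ± 0.12 (adjusted p = 2.62e-12) in acute against parental cells, and CCNA2, the S phase A-type cyclin, one of −4.60 ± 0.13 (4.32e-12), the opposite direction to CCNA1. In early against parental cells 6 fell and none rose, and without parental library 2 the number was 3. The 6 included CDK1 (log2 fold change −0.69 ± 0.08, adjusted p = 5.76e-05) and CCNA2 (−0.48 ± 0.09, adjusted p = 0.00128).

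Of 13 RB family and E2F-DP genes, 11 were lower and 1 was higher in acute than in parental cells, with a median log2 fold change of −1.46, and the one higher was RBL2 (p130), the pocket protein of resting cells (log2 fold change 0.55 ± 0.10, adjusted p = 1.69e-04). E2F2 and E2F1, activators of S phase genes, had log2 fold changes of −4.89 ± 0.18 and −4.11 ± 0.14 (adjusted p = 3.3e-11 and 2.04e-11). Between FGF2 early and FL early flasks, 2 were higher and 3 lower. The DP partner TFDP2 and the repressor E2F5 were lower by the largest amounts (log2 fold changes −2.18 ± 0.30 and −2.20 ± 0.34, adjusted p = 4.37e-04 and 0.00104). TFDP2 stood at 4.07, 3.31, 4.58 and 2.97 CPM in FGF2 early flasks, against 20.5, 20.5, 19.9 and 6.74 CPM in FL early flasks, with replicate 4 nearest to the FGF2 arm. The number called in that comparison was 2 or 3 without any 1 of the FGF2 early flasks or without FL early replicate 1, 2 or 3.

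Of 10 genes of cyclin and inhibitor turnover, 7 were lower and 2 higher in acute than in parental cells, with a median log2 fold change of −0.75, and 6 fell and none rose in early against parental cells. SKP2, the ubiquitin ligase subunit that marks p27 for destruction, was lower in acute cells (log2 fold change −1.62 ± 0.09, adjusted p = 1.72e-09) and in early cells (−0.46 ± 0.07, adjusted p = 3.5e-04), each against parental. SKP1 and CUL1, subunits of the same ligase, were lower in FGF2 early than in FL early flasks (log2 fold changes −0.59 ± 0.08 and −0.58 ± 0.11, adjusted p = 5.52e-04 and 0.00482). FBXW7, which marks cyclin E for destruction, was higher there (log2 fold change 0.35 ± 0.09, adjusted p = 0.0238), a call lost without FGF2 early replicate 1, 2 or 4 or FL early replicate 1, 2 or 3. All these lists are described by counts, beside the shares of all tested genes given above.

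Across all 14 libraries, the genes whose log2 CPM followed each member most closely were found by Pearson's r, a description over libraries that share arms. CCNE1 was followed most closely by CTNNAL1 (r = 0.996) and HMGB3 (0.995), CCNE2 by FAM72B (0.995) and ESCO2 (0.994), and CDK2 by PKMYT1 (0.996) and CHAF1A (0.995). FAM72B has near-identical copies, so its values are uncertain. CDK4 was followed by AIMP2 (0.993) and PHB1 (0.992), and CCND2 by PFKP (0.986) and OXSR1 (0.982). For CCND1 they were TFAP4 (0.958) and RRP12 (0.957), and for CCND3 TSKU (0.951) and TEX264 (0.944). CCNA1 and CDK6 had the least close followers, PRICKLE1 (0.940) and PRSS12 (0.936) for CCNA1, and STXBP5L and the pseudogene SMG1P1 (0.920 each) for CDK6.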

How the data were processed

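Stranded poly(A) RNA-seq of 14 MOLM14 libraries had been quantified by the authors with kallisto (version not given), per the submitters' processing notes, where GRCh37 is the build named. The deposited table holds the authors' estimated counts per Ensembl gene, not normalized for depth, with library totals of 25723575 to 33075041. How transcripts were summed to genes is not given in the sources used here.

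Names were found for 33353 identifiers (84.9%). GENCODE 29 and RefSeq GRCh38.p14 served for names, transcript lengths and promoter letters, since they differ in build from the counts. Counts were rounded, filtered with filterByExpr (minimum count 10, minimum total 15) and fitted as 4 arms over all 14 libraries under R 4.3.3 using the robust quasi-likelihood test of edgeR 4.0.16, after TMM scaling, with Benjamini-Hochberg adjustment at 0.05 over 15756 genes. Early against another arm is the mean of both early arms minus that arm. CPM used TMM library sizes, and log2 fold changes are given ± SE. Scripts were tested on simulated counts. DESeq2 1.42.0, limma-voom (limma 3.58.1), a 1.5-fold threshold, other scalings, no filter and other sets of libraries were run as alternatives. Python 3.11.15 with matplotlib 3.10.9 drew the figures.

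The 9 genes and the lists were chosen with earlier results of these data known. Named list genes are up to 4 with the smallest adjusted p in a comparison described, and all CDK inhibitors, and a gene not reported here was passed over. CDT1, MNAT1, RBL2, MPO, LYZ, CSF1R, CD68, FLT3 and ITGAM were named after their values were seen. Followers of a member are the 2 genes with the highest r, among those averaging 3 or more in log2 CPM. No 2 libraries of an arm agreed within sampling noise, as the lowest mean chi-square of a pair was 5.4.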

Additional observations from a re-analysis of the deposited data

Results flagged for a closer look

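The change from parental cells differed between the early arms for 5 of the 9 genes, by the direct test of FGF2 early against FL early flasks, which share the parental libraries. In that test 13.6% of all tested genes were called. The CCND2 and CCND3 calls were lost when single flasks were left out, and only 1 of the 9 genes passed with a 1.5-fold threshold. The difference of the changes was −1.76 on the log2 scale for CCNA1, −0.60 for CCNE1, −0.44 for CCND3, 0.52 for CDK6 and 0.53 for CCND2, each as FGF2 early minus FL early.

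CCNE1 in FL early replicate 3, at 16.6 CPM, lay far above the other 3 flasks of its arm, with a gap of 0.849 of the arm's range where 0.829 is the critical value of Dixon's test. Among 18 sets of 4 flasks looked at, chance would mark about 1 in 20.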

How the results depend on the processing

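Alternatives gave 918 values over 54 results (9 genes in 6 comparisons). Of these values, 867 kept their side of the threshold, 32 were no longer past it and 19 newly passed it. No gene called in the main fit or in the alternative changed direction. Values called in neither could change sign, as for CCND3 in FL early against parental cells (log2 fold change −0.16 to 0.16). Every alternative run left 31 results on the same side of the threshold. With a 1.5-fold threshold, genes called numbered 884 in FGF2 early, 362 in FL early and 555 in all early against parental cells, 5255 in early against acute, 5397 in acute against parental and 483 in FGF2 early against FL early flasks. Of the 9 members, 0, 1, 1 and 1 then passed in FGF2 early, FL early and all early against parental and in FGF2 early against FL early flasks. Fits of the compared arms alone called 7 members in FGF2 early and 1 in FL early against parental. Over the alternatives run, these fits included, all genes called in these comparisons reached at most 6757 and 4032, in the same order. The shares of all genes called in these fits alone are not given here. Leaving out 1 library at a time gave 1351 to 3274 genes and 3 to 5 members in FGF2 early against FL early, 1512 to 3248 genes and 1 to 2 members in FL early against parental, and 2685 to 4773 genes in early against parental. The counts moved over 1.5 times came without parental library 1 or 2 in FL early and in all early against parental cells. Between the early arms they came without FGF2 early replicate 3 or 4 or FL early replicate 2, 3 or 4. Without FL early replicates 1 and 4 together, FGF2 early against FL early called 3498 genes. The causes were not tested.

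Same-numbered libraries did not deviate together (10 correlations, −0.09 to 0.07), so the numbers do not pair samples. With the replicate number as a block, members called in early against parental cells were 4, with CDK4 and CDK6 added. With upper quartile scaling the median log2 fold change of all genes shifted to −0.16 in early against acute and to 0.18 in acute against parental cells.

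With the longest coding transcript, CCND3 shares were 83.5% in FGF2 early, 88.3% in FL early, 93.9% in acute and 86.9% in parental libraries, CCND2 shares 13.9%, 7.55%, 5.54% and 10.0% in the same order, and the parental CCND1 share 3.10%. CDK6 to CDK4 ratios were 0.270, 0.188, 0.417 and 0.168 in that order, from the changed lengths alone. The acute arm holds 1 library per ligand state, and its E-type cyclins rest on 9 to 29 counts.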
